A study of Mus musculus with 3 samples.

Results

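Genes of the circadian clock were followed through the liver nuclei of 3 mice, in every class of nuclei that could be named. They are Arntl, Clock, Npas2, Per1, Per2, Per3, Cry1, Cry2, Dbp and Tef, chosen by symbol as core clock and output genes. They make up 10 of the 32285 genes in the files, and all 10 had at least 50 unique molecular identifiers (UMIs, each counting 1 captured RNA molecule) in hepatocyte-like nuclei. In the mammalian clock, the transcription factor Arntl (also called Bmal1) pairs with Clock or Npas2 and drives the Period and Cryptochrome genes, whose proteins come back to block that pair. A side loop through Nr1d1, Nr1d2 and the Ror receptors acts on Arntl, and the output factors Dbp and Tef pass the rhythm on to genes of metabolism. In liver this cycle runs in antiphase, with Arntl and Npas2 high when Dbp is low, so that a level measured at an unknown hour cannot be read as the mean over a day.

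The nuclei came from frozen livers of male C57BL/6 J mice, 1 on a normal diet (ND) and 2 with liver fibrosis of the metabolic dysfunction-associated steatohepatitis (MASH) kind (STZ-HFHC 1 and STZ-HFHC 2). The STZ-HFHC mice had received 0.2 mg streptozocin (STZ), a toxin of insulin-producing cells, under the skin at the age of 3 days, and a high-fat, high-cholesterol (HFHC) diet from 4 weeks of age. Each mouse gave 1 library made from the droplets of the 10x 3' kit. The labels give neither the age nor the hour of collection. In this model weighing ran to 10 weeks of age. The study's results call the blood glucose of that age fasting, whereas its methods describe random blood glucose. The feeding state at collection of these livers was not found, so that time of day and condition cannot be told apart. The sample titles of ND and of the STZ-HFHC mice carry codes that begin differently, and what these codes stand for is not stated. A difference in animals, handling or library making that goes with them cannot be told apart from the condition either. With 1 ND mouse the spread among ND mice is unknown, and nuclei of 1 mouse are not replicates of a condition.

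The 3 libraries kept 8494, 8921 and 10921 nuclei in the order ND, STZ-HFHC 1, STZ-HFHC 2, with a median of 4068, 3015 and 4027 UMIs. Between 20 and 27 barcodes of kept nuclei were shared by each pair of libraries. Hepatocyte-like nuclei numbered 3725, 3091 and 4893. Their naming markers, summed, were higher than in the other classes of each library, which follows in part from the naming. None of these markers was among the leading genes of the hepatocyte-like clusters, and those made mostly of STZ-HFHC nuclei were named in a second step at 1.2-fold. Nearly all ND hepatocyte-like nuclei lay in other clusters than those of the STZ-HFHC mice. The same split held for the endothelial-like and stellate-like classes, each formed by 1 cluster mostly of ND and 1 mostly of STZ-HFHC. The clock genes were left out of clustering. RNA of hepatocytes was present in every class: the summed level of 10 hepatocyte markers in the other classes was 67.7% to 81.9% of that in hepatocyte-like nuclei in ND, 42.1% to 85.0% in STZ-HFHC 1 and 55.4% to 88.5% in STZ-HFHC 2. Each class still held its own markers at 5.05 to 158 times their level in hepatocyte-like nuclei. Levels below are CPM, the UMIs of a gene scaled to a common total of UMIs and summed over the nuclei of a class, with exact Poisson intervals that cover counting error only, and were compared for the same gene between libraries or classes.

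Promoter sequences of the members place 3 of them beside the canonical E-box, the letters CACGTG that the Arntl-Clock pair reads. RefSeq promoters on GRCm38.p6, each from 250 bases before to 50 after a transcript start, were found for 9 of the 10 members, all but Per2, and searched on both strands. CACGTG was present in Per1, Cry1 and Tef, and in 7.15% of 32851 promoters of the table. A variant, CACGTT, was in Cry1 and Cry2, and in 4.68% of promoters. The D-box letters TTATGTAA, a form read by Dbp and Tef, occurred 2 times upstream of Per3, against 0.938% of promoters with any match, while the form TTACGTAA matched no member and 0.119% of promoters. TAGGTCA, the core read by the Ror and Nr1d receptors, was found in Arntl and in 2.61% of promoters. These are matches of letters, without any measurement of binding in these livers. The 250 bases upstream of the start are shown for the E-box genes and Per3, 5' to 3' on the gene's own strand with the matches in capitals, together with 30 bases around the match in Arntl. They lie at chr11:69098699-69098948 on the plus strand (Per1), chr10:85185055-85185304 on the minus strand (Cry1), chr15:81802423-81802672 on the plus strand (Tef), chr4:151044666-151044915 on the minus strand (Per3) and chr7:113207530-113207559 on the plus strand (Arntl).
Per1: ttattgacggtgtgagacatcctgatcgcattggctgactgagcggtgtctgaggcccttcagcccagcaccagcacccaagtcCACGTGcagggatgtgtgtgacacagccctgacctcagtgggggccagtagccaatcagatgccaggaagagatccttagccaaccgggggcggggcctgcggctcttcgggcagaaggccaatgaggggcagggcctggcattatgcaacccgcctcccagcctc
Cry1: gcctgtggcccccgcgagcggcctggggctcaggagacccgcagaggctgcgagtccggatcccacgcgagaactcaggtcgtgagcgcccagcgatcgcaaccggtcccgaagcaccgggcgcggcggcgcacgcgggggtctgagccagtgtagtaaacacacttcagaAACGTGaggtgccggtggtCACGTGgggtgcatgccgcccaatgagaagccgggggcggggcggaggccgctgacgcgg
Tef: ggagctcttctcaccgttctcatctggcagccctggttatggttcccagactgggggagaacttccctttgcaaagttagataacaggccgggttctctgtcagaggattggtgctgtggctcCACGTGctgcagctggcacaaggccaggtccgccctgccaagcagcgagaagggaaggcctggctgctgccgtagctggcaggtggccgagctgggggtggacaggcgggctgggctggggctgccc
Per3: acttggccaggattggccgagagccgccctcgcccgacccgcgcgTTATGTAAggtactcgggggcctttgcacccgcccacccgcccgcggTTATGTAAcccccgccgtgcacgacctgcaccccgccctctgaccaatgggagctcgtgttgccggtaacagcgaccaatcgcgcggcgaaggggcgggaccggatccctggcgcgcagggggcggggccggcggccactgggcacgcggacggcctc
Arntl: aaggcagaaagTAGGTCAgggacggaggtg
Cry1 carries both letter forms of the E-box, and its match to CACGTT lies on the other strand, where it is read here as AACGTG.

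Among the activators, Arntl and Npas2 were far lower in the hepatocyte-like nuclei of both STZ-HFHC mice than in those of the ND mouse, and Clock was lower by a smaller step. Arntl (ENSMUSG00000055116, chromosome 7, 113207465 to 113314126, plus strand, GENCODE M21 on GRCm38) stood at 215.5 CPM (208.6 to 222.6) in the ND mouse against 34.8 CPM (32.6 to 37.1) for STZ-HFHC 1 and 51.0 CPM (48.6 to 53.4) for STZ-HFHC 2. The 2 STZ-HFHC values were thus far below ND and also apart from each other. The log2 ratio to ND was -2.63 for STZ-HFHC 1 and -2.08 for STZ-HFHC 2, on average -2.36 ± 0.39 (SD, n = 2 mice). Npas2 (ENSMUSG00000026077, chromosome 1, 39193731 to 39363236, plus strand), a relative of Clock that can take its place beside Arntl, was at 131 CPM in the ND mouse against 18.2 CPM for STZ-HFHC 1 and 17.7 CPM for STZ-HFHC 2. Here both STZ-HFHC mice lay together, with a mean log2 ratio of -2.87 ± 0.03 (SD, n = 2). Clock (ENSMUSG00000029238, chromosome 5, 76209868 to 76304792, minus strand) was at 352 CPM in the ND mouse against 247 CPM for STZ-HFHC 1 and 253 CPM for STZ-HFHC 2, a mean log2 ratio of -0.49 ± 0.02. In edgeR's quasi-likelihood test with Benjamini-Hochberg adjustment, with 2 mice against 1, Npas2 (adjusted p = 0.00936) and Arntl (adjusted p = 0.0177) fell, and Clock (adjusted p = 0.14) did not pass. That test has 1 residual degree of freedom and takes the ND mouse to vary as the STZ-HFHC mice do.

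The 3 Period genes, the repressors that feed back on the Arntl-Clock pair, did not move alike, and none of them passed the test. Per2 (ENSMUSG00000055866, chromosome 1, 91415982 to 91459324, minus strand) was at 21.0 CPM in the ND mouse against 40.7 CPM for STZ-HFHC 1 and 78.5 CPM for STZ-HFHC 2. Both STZ-HFHC mice were above ND, but the distance between these 2 mice was as wide as that of the lower one from ND, and the mean log2 ratio was 1.43 ± 0.67 (SD, n = 2, adjusted p = 0.143). Per3 (ENSMUSG00000028957, chromosome 4, 151003652 to 151044665, minus strand) was at 9.14 CPM in the ND mouse against 25.8 CPM for STZ-HFHC 1 and 21.7 CPM for STZ-HFHC 2, a mean log2 ratio of 1.37 ± 0.18 (adjusted p = 0.0735). Per3 overlaps Camta1 on the same strand, so that reads of the 2 genes may have been split between them or left out, and its level is uncertain. Per1 (ENSMUSG00000020893, chromosome 11, 69095217 to 69109960, plus strand), which also answers quickly to hormones and stress, was at 57.5 CPM in the ND mouse against 43.7 CPM for STZ-HFHC 1 and 59.6 CPM for STZ-HFHC 2. The ND value thus lay between both STZ-HFHC mice, and the mean log2 ratio was -0.17 ± 0.32 (adjusted p = 0.565). Per1 was the member whose mean changed sign with the setting, to 0.10 when every nucleus was thinned to 1000 UMIs and to 0.05 without STZ-HFHC 1.

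The 2 Cryptochrome genes, partners of the Period proteins in repression, lay on opposite sides of ND. Cry1 (ENSMUSG00000020038, chromosome 10, 85131700 to 85185064, minus strand) was at 91.2 CPM (86.8 to 95.8) in the ND mouse against 20.02 CPM (18.4 to 21.8) for STZ-HFHC 1 and 32.01 CPM (30.2 to 33.9) for STZ-HFHC 2. It fell, with a mean log2 ratio of -1.85 ± 0.48 (SD, n = 2, edgeR adjusted p = 0.0391). Cry2 (ENSMUSG00000068742, chromosome 2, 92403646 to 92434043, minus strand) was at 38.2 CPM in the ND mouse against 57.8 CPM for STZ-HFHC 1 and 68.0 CPM for STZ-HFHC 2. Its mean log2 ratio of 0.71 ± 0.17 was above 0 in both mice but did not pass the test (adjusted p = 0.194).

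Both output genes were higher in the STZ-HFHC mice. Dbp (ENSMUSG00000059824, chromosome 7, 45705088 to 45710203, plus strand), a transcription factor with a very strong daily swing in liver, was at 0.81 CPM (0.443 to 1.36) in ND, from 14 UMIs in 3725 nuclei. It reached 9.99 CPM (8.82 to 11.3) in STZ-HFHC 1 and 7.49 CPM (6.61 to 8.45) in STZ-HFHC 2, each from 265 UMIs. STZ-HFHC 1 had 11.9 times (7.22 to 22.9) and STZ-HFHC 2 had 8.94 times (5.41 to 17.1) the ND level, and Dbp rose with a mean log2 ratio of 3.37 ± 0.29 (edgeR adjusted p = 0.0303). Tef (ENSMUSG00000022389, chromosome 15, 81802421 to 81826863, plus strand), a relative of Dbp that binds the same letters, was at 71.5 CPM in the ND mouse against 184 CPM for STZ-HFHC 1 and 178 CPM for STZ-HFHC 2. It rose with a mean log2 ratio of 1.34 ± 0.04 (adjusted p = 0.0395), and both STZ-HFHC mice lay close together.

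**Figure D1:**
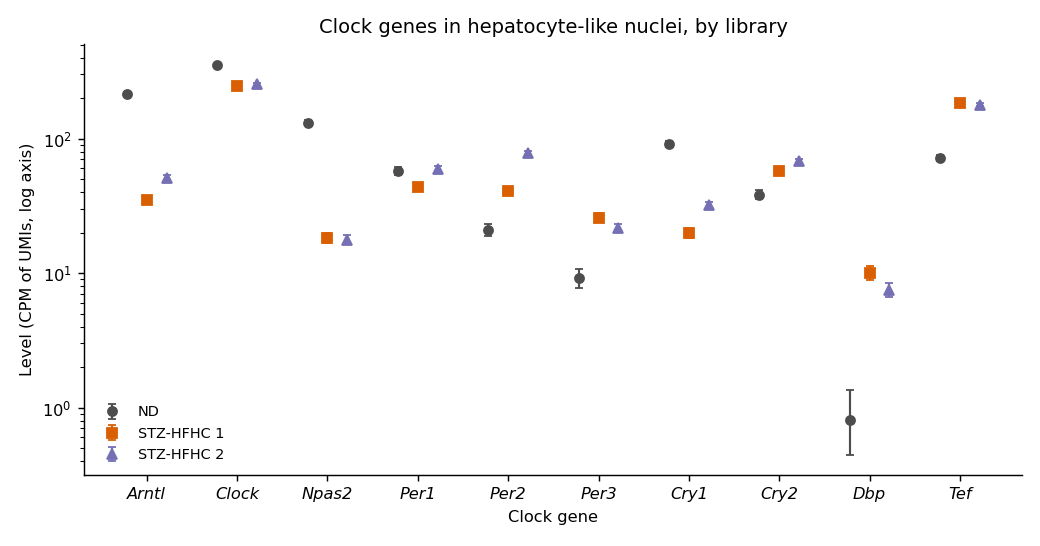
Level of the 10 clock genes in hepatocyte-like nuclei, in CPM of UMIs on a log axis, for ND (circles), STZ-HFHC 1 (squares) and STZ-HFHC 2 (triangles), with exact Poisson 95% intervals, some smaller than the symbol. Arntl, Npas2 and Cry1 lie lower, and Per2, Per3, Dbp and Tef higher, in both STZ-HFHC mice than in ND, while for Per1 the ND value of 57.5 CPM lies between 43.7 and 59.6 CPM.

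The same order showed in the share of hepatocyte-like nuclei with at least 1 UMI after each nucleus was thinned to 1000 UMIs, which left out 220, 63 and 106 shallower nuclei. Arntl was seen in 19.3% of ND nuclei (exact binomial 95% interval 18.0 to 20.6), 3.80% of STZ-HFHC 1 nuclei (3.15 to 4.54) and 5.10% of STZ-HFHC 2 nuclei (4.49 to 5.76). Tef was seen in 7.67% of ND nuclei, 16.1% of STZ-HFHC 1 nuclei and 15.4% of STZ-HFHC 2 nuclei. Dbp was near the limit of detection in ND, with 2 of 3505 nuclei, and was seen in 1.16% and 0.689% of nuclei of the STZ-HFHC mice. Without thinning, the Arntl shares were 54.4%, 22.1% and 27.5%, at median depths of 3807, 7722 and 6453 UMIs. No class is known to lack the clock, so that no share for free RNA could be set beside these.

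In hepatocyte-like nuclei a larger share of the members than of genes at large lay past both limits used, a rule of size and edgeR's test. A gene was counted by the rule of size when it had 50 or more UMIs over the 3 libraries and both STZ-HFHC mice lay on the same side of ND by a log2 ratio of 1 or more. By that rule 6 of 10 members passed in hepatocyte-like nuclei, 3 higher (Per3, Dbp, Tef) and 3 lower (Arntl, Npas2, Cry1). Of all 14663 genes with as many UMIs, 14.5% passed in either direction. Per2 just missed the rule, at a log2 ratio of 0.95 in STZ-HFHC 1 and 1.90 in STZ-HFHC 2. In edgeR's test 5 of 10 members passed (Dbp and Tef up, Arntl, Npas2 and Cry1 down), beside 3.37% of 16570 genes, of which 213 were higher and 346 lower in STZ-HFHC. The median log2 ratio of all genes in hepatocyte-like nuclei was 0.09 for STZ-HFHC 1 and 0.11 for STZ-HFHC 2, and that of the 10 members, which moved both ways, 0.10 and 0.44. DESeq2 called 7 of 10, adding Per2 and Per3, beside 6.96% of genes.

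Summed over all nuclei kept, where a change in the mix of cell types and a change within cells cannot be told apart, the same 6 members passed the rule of size, beside 18.3% of 16829 genes. Arntl was at 214 CPM in the ND mouse against 49.2 CPM for STZ-HFHC 1 and 64.0 CPM for STZ-HFHC 2. Dbp was at 0.843, 10.0 and 6.65 CPM, and Tef at 68.4, 158 and 156 CPM in the same order. The median of all genes was higher in STZ-HFHC here, by 0.19 and 0.17 on the log2 scale. With TMM or DESeq2 scaling 4 of 10 members remained past the rule, without Per3 and Tef, beside 17.5% of genes with either scaling. In edgeR's test on the sums over all nuclei no member passed, with adjusted p from 0.0525 for Npas2 to 0.511, although 7 of 10 had an unadjusted p under 0.05, and 14 of 18726 genes passed at all. The calls made in hepatocyte-like nuclei were thus not made in the sum over all nuclei.

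**Figure D2:**
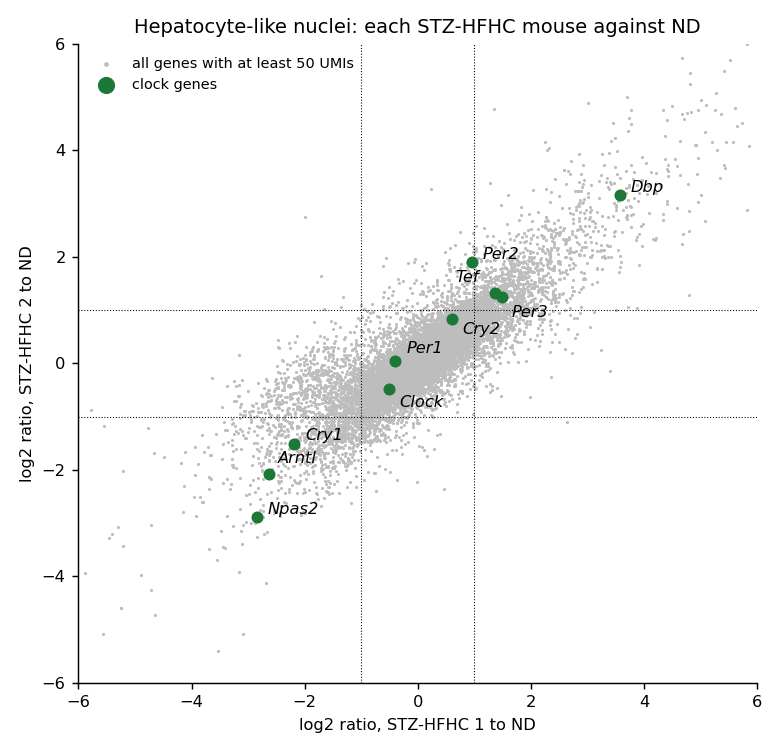
Log2 ratio to ND of each gene with at least 50 UMIs in hepatocyte-like nuclei, in STZ-HFHC 1 (horizontal axis) and STZ-HFHC 2 (vertical axis), with clock genes as large named points, dotted lines at a log2 ratio of 1 in size and 47 genes beyond the axes not drawn. Both axes share the ND library, so that points lie along the diagonal in part for that reason. Dbp lies at the upper right, at 3.58 and 3.16, and Npas2 at the lower left, at -2.85 and -2.89.

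The 2 STZ-HFHC mice, which share a group label, were compared with each other to see how far mice of 1 group differed in these genes. None of the 10 members differed by a log2 ratio of 1 or more between them, beside 8.16% of 14168 genes that did, so that this count is near the background. By the log2 ratio of STZ-HFHC 2 to STZ-HFHC 1, Per2 stood at or above 94.1% of these genes. Cry1 stood at 91.1%, Arntl at 88.5%, Per1 at 85.3% and Cry2 at 73.4%. Clock stood at 53.3%, Npas2 at 44.2%, Tef at 43.4%, Per3 at 22.9% and Dbp at 13.8%. The widest gap was that of Per2, higher in STZ-HFHC 2 by a fold of 1.93 (95% counting interval 1.80 to 2.07), followed by Cry1 at 1.60 (1.44 to 1.78), Arntl at 1.47 (1.35 to 1.59) and Per1 at 1.36 (1.27 to 1.47). Dbp lay the other way, with a fold of 0.749 (0.63 to 0.892) of STZ-HFHC 2 over STZ-HFHC 1, and Per3 at 0.841 (0.758 to 0.934). Npas2, Clock and Tef had intervals that spanned 1, at 0.971, 1.02 and 0.966. Among related clock genes, Nfil3, a repressor that competes with Dbp and Tef for the D-box, lay further out than Per2, at 2.44 (2.13 to 2.81). Nr1d1 at 0.54 (0.479 to 0.606) and Bhlhe41 at 1.69 (1.33 to 2.18) lay less far out than Per2 but further than Cry1. The hour at which each of these 2 mice was sampled is not stated either.

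Across hepatocyte-like, endothelial-like and stellate-like nuclei, the 3 classes that are large in every library, several members varied little in ND and more in the STZ-HFHC mice. From the lowest to the highest of these classes, Arntl spanned 1.09 times in ND (209 to 228 CPM), 2.65 times in STZ-HFHC 1 (34.8 to 92.2 CPM) and 2.02 times in STZ-HFHC 2 (51.0 to 103 CPM). Cry2 spanned 1.05, 2.09 and 1.98 times, and Tef 1.07, 2.07 and 1.94 times in the same order. Npas2 went from 1.34 times in ND to 5.65 and 6.02 times. Clock (1.03, 1.23 and 1.05 times) and Per1 (1.15, 1.13 and 1.26 times) varied little in all 3 libraries, and Dbp rests on 5 UMIs in its lowest ND class. Smaller ND classes were not all level: Per1 was at 29.7 CPM in T or NK cell-like nuclei, from 17 UMIs, where hepatocyte-like nuclei had 1.94 times as much (1.202 to 3.34). The share of hepatocyte RNA in the other classes, given above, was high in ND, and its part in the ND levels was not tested.

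For Arntl, Tef and Npas2 the highest class was the same in both STZ-HFHC mice, whereas for Clock, Per1 and Per2 it was not. For Arntl, hepatocyte-like nuclei were lowest of the 8 classes in STZ-HFHC 1 and next to lowest in STZ-HFHC 2, where the monocyte-like value of 48.2 CPM was not apart from the hepatocyte-like 51.0 CPM beyond its counting interval. Stellate-like nuclei were highest, at 92.2 and 103 CPM. Tef ran the opposite way, with hepatocyte-like nuclei highest at 184 and 178 CPM and macrophage-like nuclei lowest at 81.8 and 82.3 CPM. In the STZ-HFHC mice Npas2 stood out by its level in stellate-like nuclei, at 103 CPM (91.7 to 116) for STZ-HFHC 1 and 107 CPM (98.0 to 116) for STZ-HFHC 2. Stellate-like nuclei of ND had 166 CPM (156 to 176), and the highest ND value was 183.5 CPM in cholangiocyte-like nuclei, from 28 UMIs. Cholangiocyte-like nuclei came next in the STZ-HFHC mice, at 50.4 and 52.5 CPM from 17 and 18 UMIs, and every other class of these mice was at 23.25 CPM or lower.

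**Figure D3:**
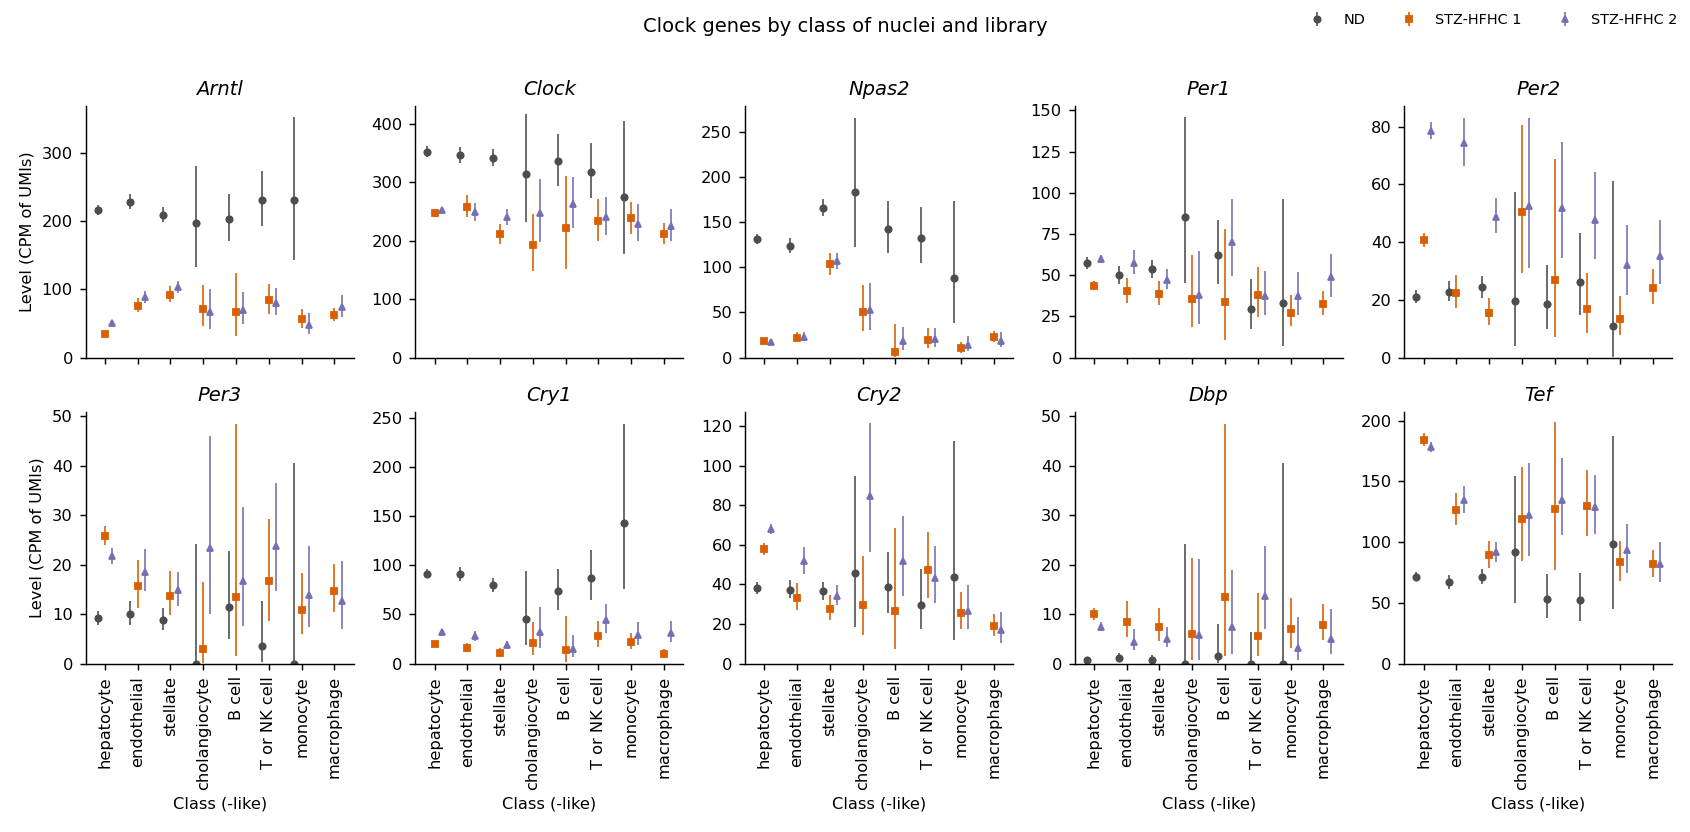
Level of each clock gene in CPM of UMIs (vertical axes, each from 0) by class of nuclei (horizontal axes) for ND (circles), STZ-HFHC 1 (squares) and STZ-HFHC 2 (triangles), with exact Poisson 95% intervals. ND macrophage-like nuclei (11) are not drawn. Npas2 stays above 100 CPM in stellate-like nuclei of all 3 libraries, while hepatocyte-like nuclei go from 131 CPM in ND to 18.2 and 17.7 CPM.

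Classes of the same mouse were compared in a fit over 7 classes with the mouse as a term, which tested 9 of the 10 members (Dbp had too few UMIs). Against stellate-like nuclei, hepatocyte-like nuclei were higher in Per2, Cry1, Cry2 and Tef and lower in Arntl and Npas2, 6 members in all, beside 46.3% of 11132 genes, so that the count is little above the background. Npas2 had the widest difference, a log2 fold of -1.86 (edgeR adjusted p = 6.45e-06), made of -0.34 in ND against -2.50 for STZ-HFHC 1 and -2.59 for STZ-HFHC 2. Arntl had -0.72 (adjusted p = 0.00156), made of 0.04, -1.41 and -1.02. Tef had 0.68 (adjusted p = 6.55e-04), made of -0.001, 1.05 and 0.96. The class difference of Arntl and Tef was thus carried by the STZ-HFHC mice and near 0 in ND. Npas2 alone passed without STZ-HFHC 1, beside 28.9% of genes, and likewise without STZ-HFHC 2, beside 24% of genes. Without ND 7 of 10 members passed, beside 57.1% of genes, so that this count is near the background. Without the mouse as a term 0 of 9 members passed in edgeR, 2 of them with an unadjusted p under 0.05, beside 16.6% of genes.

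Against endothelial-like nuclei, hepatocyte-like nuclei were higher in Cry2 (log2 fold 0.50, adjusted p = 0.0358) and Tef (0.45, adjusted p = 0.0274) and lower in Arntl (-0.52, adjusted p = 0.0277). Those 3 of 9 members stand beside 29.9% of 11132 genes, a share like that of genes at large. For Arntl the log2 ratio of hepatocyte-like to endothelial-like nuclei was -0.08 in ND against -1.13 for STZ-HFHC 1 and -0.80 for STZ-HFHC 2. For Npas2, whose adjusted p was 0.847, it was 0.08, -0.28 and -0.40, far from the gap to stellate-like nuclei. These calls were not stable: DESeq2 kept Arntl alone, beside 27.5% of genes. Leaving out STZ-HFHC 1 or STZ-HFHC 2 left 0 members, beside 12.5% and 11.5% of genes. Leaving out ND gave 5 of 10, beside 41.4% of genes, so that this count is near the background. Without the mouse as a term 0 of 9 members passed in edgeR, none with an unadjusted p under 0.05, beside 7.46% of genes.

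Macrophage-like nuclei, with 11 nuclei in ND against 1090 and 484 in the STZ-HFHC mice, could be described in the STZ-HFHC mice alone. Cry2 was lower there than in hepatocyte-like nuclei, at 19.0 against 57.8 CPM in STZ-HFHC 1 and 16.8 against 68.0 CPM in STZ-HFHC 2. Tef was lower as well, by folds of 2.25 (1.96 to 2.60) and 2.16 (1.77 to 2.67), hepatocyte-like over macrophage-like. Clock was close to even, with folds of 1.17 (1.07 to 1.28) and 1.12 (0.992 to 1.27).

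In every class of the fit, 4 members were lower in both STZ-HFHC mice than in ND, namely Arntl, Clock, Npas2 and Cry1, 7 of 7 classes each. Per3 was higher in both mice in 7 of 7, although ND cholangiocyte-like and monocyte-like nuclei had 0 UMIs of it. The size differed by class. Arntl's mean log2 ratio was -2.36 in hepatocyte-like, -1.47 in endothelial-like and -1.099 in stellate-like nuclei, and that of Npas2 was -2.87, -2.45 and -0.66. Cry1 ran the other way, with -1.85, -2.10 and -2.45. Tef's mean was 1.34 in hepatocyte-like, 0.97 in endothelial-like and 0.34 in stellate-like nuclei, and it was higher in both mice in 6 of 7 classes. Dbp was higher in both mice in 6 of 7 classes, some of them with almost no ND counts. For B cell-like nuclei this rests on 1 ND UMI of Dbp. Cholangiocyte-like nuclei of ND had 0 UMIs of it, and so did those named T or NK cell-like. In hepatocyte-like, endothelial-like and stellate-like nuclei the means of Dbp were 3.37, 2.38 and 2.99 over ND sums of 14, 8 and 5 UMIs. All these ratios share the ND library, and whether they differed between classes was not tested over mice, since ND has 1. How many of all genes lay on the same side of ND in every class was not counted. Hepatocyte RNA was present in every class, and its part in this agreement was not tested.

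Arntl and Tef were also set against each other within each class, a ratio that needs no scaling to library size. The pair was chosen because these genes had moved apart, so the ratio restates their values above and is given as a description. In hepatocyte-like nuclei there were 3.01 Arntl UMIs per Tef UMI in ND (2.82 to 3.22), 0.189 in STZ-HFHC 1 (0.175 to 0.202) and 0.286 in STZ-HFHC 2 (0.271 to 0.301). ND was thus 16 times STZ-HFHC 1 and 10.5 times STZ-HFHC 2. In endothelial-like nuclei the ratio was 3.41 in ND against 0.601 for STZ-HFHC 1 and 0.655 for STZ-HFHC 2. Stellate-like nuclei had 2.92 in ND against 1.03 for STZ-HFHC 1 and 1.12 for STZ-HFHC 2, where ND was 2.83 and 2.60 times the STZ-HFHC mice. B cell-like nuclei of ND had 3.81 (2.64 to 5.63) against 0.526 and 0.52, cholangiocyte-like nuclei 2.14 (1.102 to 4.37) against 0.6 and 0.548, and monocyte-like nuclei 2.33 (1.02 to 5.79) against 0.673 and 0.517.

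**Figure D4:**
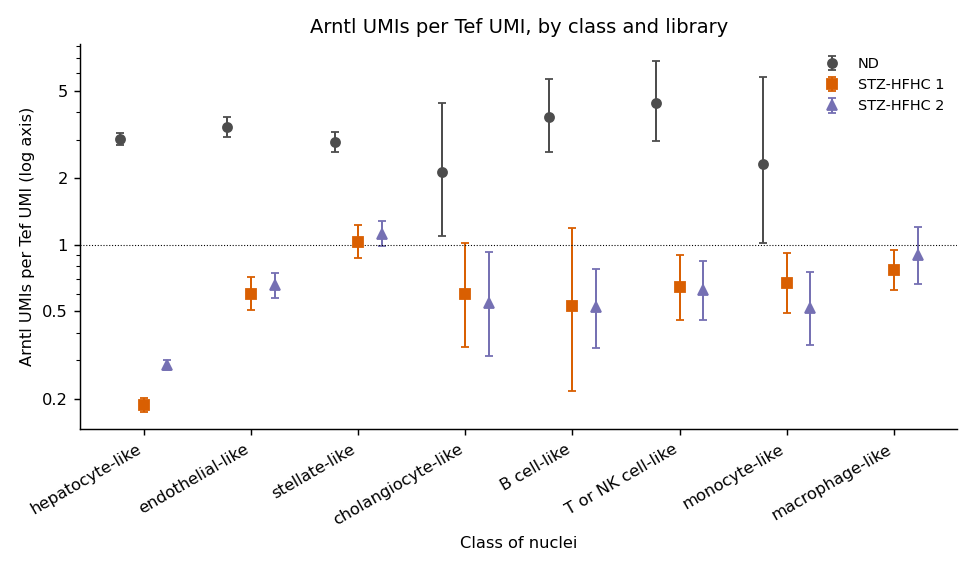
Arntl UMIs per Tef UMI (log axis) by class of nuclei for ND (circles), STZ-HFHC 1 (squares) and STZ-HFHC 2 (triangles), with exact 95% counting intervals and a dotted line at 1. Hepatocyte-like nuclei lie at 3.01 in ND against 0.189 and 0.286 in the STZ-HFHC mice, and stellate-like nuclei at 2.92 against 1.03 and 1.12.

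Along the lobule axis, from the portal vein to the central vein, Cry1 and Tef were higher on the periportal side in all 3 livers. So were Per2 and Per1, with wider error in ND. Hepatocyte-like nuclei were ordered by their share of UMIs from 8 pericentral genes minus that from 8 periportal genes and cut into 3 equal ranges, with 58.4% to 62.3% of nuclei within 0.1 percentage points of a bound. Per2 was lower in the pericentral than in the periportal range, by log2 ratios of -0.47 in ND against -0.84 for STZ-HFHC 1 and -0.84 for STZ-HFHC 2. In CPM it went from 23.1 to 16.6 in ND, from 53.5 to 29.96 in STZ-HFHC 1 and from 105 to 58.7 in STZ-HFHC 2. Cry1 showed -0.42, -1.07 and -0.91, and Per1 -0.13, -0.70 and -0.80. In ND the counting intervals of the 2 ranges overlapped for Per1 (54.2 to 67.4 periportal against 49.3 to 61.8 CPM) and for Per2 (19.2 to 27.4 against 13.4 to 20.4 CPM) but not for Cry1 (95.97 to 113 against 70.8 to 85.7 CPM). Per3 was also below 0 in each library, at -0.57, -0.005 and -0.10, and so was Dbp, at -0.01, -0.21 and -0.12, with 4 UMIs in either ND range. Tef was lower on the pericentral side, at -0.30, -0.16 and -0.23, a smaller step than that of Per2 or Cry1 in each library. In ND the step of Tef was wider than that of Per1. The counting intervals of Tef did not overlap in any library, in ND 69.96 to 84.8 periportal against 56.1 to 69.3 CPM. Arntl and Clock stayed within 0.10 of 0 in each library. Npas2 was split by condition, at -0.27 in ND but 0.83 and 0.57 in the STZ-HFHC mice, and Cry2 split the other way, at 0.27 in ND and -0.48 and -0.51 in the STZ-HFHC mice. These are 3 values per gene without a test, and 1703 ND nuclei of an unnamed cluster led by pericentral genes were not among them. With that cluster added, the ND values were -0.69 for Per2, -0.48 for Cry1, -0.15 for Per1, -0.19 for Npas2, 0.18 for Cry2, -0.16 for Arntl and 1.01 for Dbp, the last from 4 and 8 UMIs.

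**Figure D5:**
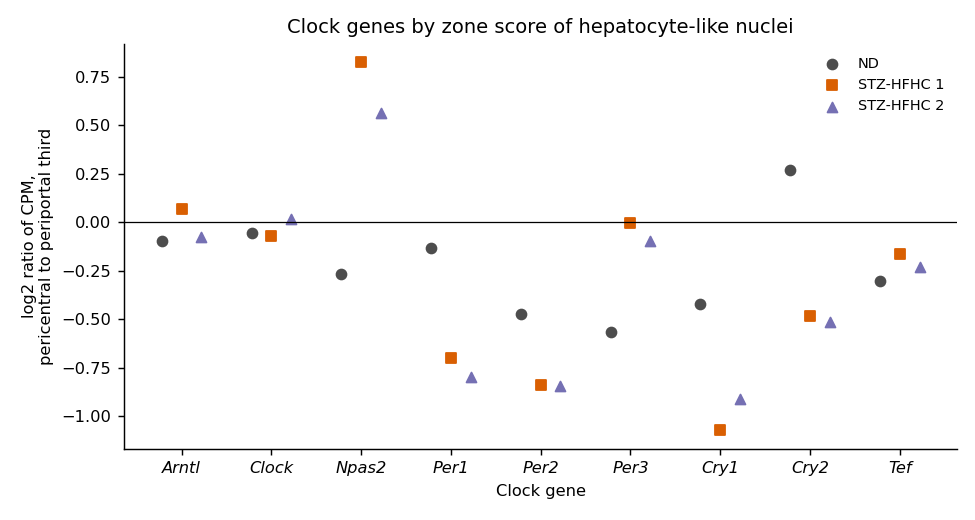
Log2 ratio of CPM in the pericentral to that in the periportal range of hepatocyte-like nuclei (vertical axis) for 9 clock genes, in ND (circles), STZ-HFHC 1 (squares) and STZ-HFHC 2 (triangles), with 1 value per library and no error. Per1, Per2, Per3, Cry1 and Tef lie below 0 in all 3 libraries, Per3 at -0.005 in STZ-HFHC 1, and Npas2 lies below 0 in ND and above it in both STZ-HFHC mice.

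The other 9 genes of the clock loops that were listed, the stabilising receptors and their relatives, were read alongside the members in hepatocyte-like nuclei. By the rule of size 4 were higher (Nr1d1, Nr1d2, Bhlhe41 and Ciart) and 1 lower (Nfil3), and edgeR called 2 of 9, Nr1d2 (adjusted p = 0.0258) and Ciart (adjusted p = 0.0218), both up. DESeq2 called 6 of 9. Of all genes, 14.5% passed the rule of size, 3.37% edgeR and 6.96% DESeq2. The median log2 ratio of the list was 1.15 for STZ-HFHC 1 and 0.93 for STZ-HFHC 2, beside 0.09 and 0.11 over all genes. Nr1d1, which represses Arntl and Npas2, was at 2.89 CPM in the ND mouse against 25.8 CPM for STZ-HFHC 1 and 13.9 CPM for STZ-HFHC 2 (mean log2 ratio 2.70 ± 0.63, adjusted p = 0.0537). Nr1d2, its sister receptor, was at 59.1, 188 and 184 CPM (1.66 ± 0.03), and Ciart, a repressor of the Arntl-Clock pair, at 4.28, 23.2 and 24.7 CPM (2.47 ± 0.06). Bhlhe41, a repressor at E-boxes, was at 0.579, 3.69 and 6.27 CPM from 10, 98 and 222 UMIs, and its relative Bhlhe40 at 86.8, 193 and 165 CPM (1.04 ± 0.16). Nfil3 was at 55.3, 10.3 and 25.3 CPM (-1.78 ± 0.91, adjusted p = 0.118). Rora, which activates Arntl, had a mean log2 ratio of 0.41 ± 0.08, and Hlf, a relative of Dbp and Tef, of 0.14 ± 0.19, neither of them past the test.

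Genes that act on the clock proteins gave no call. Of 7 such genes, among them the kinases Csnk1d and Csnk1e, 0 passed the rule of size and 0 passed in edgeR, against 14.5% and 3.37% of all genes. In edgeR 1 of them (Fbxl21) had an unadjusted p under 0.05, and DESeq2 called 0. The median log2 ratio of the list was -0.01 and -0.04 in the 2 STZ-HFHC mice. Csnk1d was at 102, 102 and 106 CPM. Csnk1e had a mean log2 ratio of 0.96 ± 0.26 from 75 ND UMIs, and Fbxl21 one of -1.16 ± 0.30 from 76 ND UMIs, each past 1 in 1 mouse of the 2.

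Of 14 liver genes known to follow the clock, 6 were higher and 2 lower by the rule of size, and edgeR called 4, Tsku and Lpin1 up and Elovl3 and Cdkn1a down, while DESeq2 called 9. These counts stand beside 14.5%, 3.37% and 6.96% of all genes. The median log2 ratio of these 14 genes was 1.06 and 0.72 in the 2 mice. Elovl3, an enzyme that lengthens fatty acids, was at 158 CPM in the ND mouse against 2.64 CPM for STZ-HFHC 1 and 10.3 CPM for STZ-HFHC 2, a mean log2 ratio of -4.91 ± 1.38. Tsku, a secreted protein of liver, was at 9.55, 106 and 100.1 CPM (3.42 ± 0.06), and Lpin1, a phosphatase of lipid synthesis, at 103, 423 and 549 CPM (2.22 ± 0.27). Many of these genes also answer to diet, and clock time and diet cannot be told apart here.

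Another 4 short lists bear on other daily or acute signals in the same nuclei. Among 7 glucocorticoid-responsive genes, Fkbp5 (88.0, 334 and 258 CPM) and Zbtb16 (368, 1271 and 1056 CPM) were higher and Mt1 (73.6, 21.7 and 26.8 CPM) lower by both the rule of size and edgeR. Among 8 immediate early genes, Fos (1.62, 29.3 and 8.31 CPM), Fosb and Atf3 passed the rule, and Atf3 (4.63, 23.4 and 17.3 CPM) alone passed in edgeR. Of 9 genes of fasting and feeding, Srebf1 (14.2, 52.2 and 68.9 CPM) was higher by both. Of 8 heat shock genes, Hspa8 (166, 74.9 and 76.7 CPM) was lower by both. DESeq2 called 3 of the 7, 3 of the 8, 4 of the 9 and 1 of the 8 genes of these lists in turn. Of all genes, 14.5% passed the rule of size, 3.37% edgeR and 6.96% DESeq2, so that 1 gene of a list of 8 by the rule of size is near the background. In the same order, the median log2 ratios for STZ-HFHC 1 and STZ-HFHC 2 were -0.21 and 0.10, 0.50 and -0.31, -0.15 and -0.49, and -0.33 and -0.14. The part of these signals in the levels of the clock genes was not tested.

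Genes whose levels ran most like those of Arntl and Dbp were sought over the 23 points that 8 classes and 3 libraries give, among 13895 genes with at least 200 UMIs, as a description. With Arntl these were Mup3 (Pearson r = 0.927), Hnrnpl (0.912), Apoa1 (0.906), Serpina1e (0.905) and Bhmt (0.902), and with Dbp they were Cyp2a22 (0.947), Gstm3 (0.947), Cyp2b9 (0.945), Usp31 (0.930) and Exoc4 (0.928). The members themselves were left out of this search, so that none of them could appear, and no gene of the other clock lists was among those found. Mup3 went from 569 CPM in ND to 21.7 and 29.6 CPM in hepatocyte-like nuclei, and Cyp2b9 from 0.984 to 555 and 326 CPM. The points share libraries, depth and free RNA, so that a gene that differs between ND and both STZ-HFHC mice for any reason scores high here.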

How the data were processed

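Nuclear RNA of 3 frozen mouse livers was counted per gene and nucleus. The authors made the UMI counts with Cell Ranger (7.0.1) on mm10, per the submitters' processing notes, and deposited them as raw counts, not normalized. The handling of intronic reads and free RNA is not given in the sources used here. The files held 30989 barcodes, of which the study's stated limits (200 to 5000 genes, at most 5% mitochondrial counts) left 28336, although its methods give the number in the files as that after filtering.

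Nuclei were clustered with Scanpy (1.11.5) on 2000 variable genes, 30 principal components and 15 neighbours at Leiden resolution 1, without the clock genes and the other clock lists. Clusters were named from marker lists, with at least 3 markers and 33.3% of a list raised 2-fold over the median of other clusters, or 1.2-fold in a second step for hepatocyte clusters of the STZ-HFHC mice. Shallow or mixed clusters, and those led by mitochondrial genes, stayed unnamed. The automatic threshold of Scrublet marked 1 nucleus and did not work, so doublets were kept, and the highest 8% of scores were left out as an alternative.

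Counts were summed per library and class where at least 20 nuclei were present, and 0.5 entered each sum before log2 ratios. The sums were tested with edgeR (4.0.16) quasi-likelihood fits in R (4.3.3), with TMM scaling, filterByExpr, Benjamini-Hochberg adjustment over all genes and a threshold of 0.05, and with DESeq2 (1.42.0) as an alternative. Class contrasts held the mouse as a term (the replicate block), since classes of 1 mouse come from the same animal. Deviations from class means correlated by 0.24 to 0.80 within a mouse, and were highest with the own mouse in 18 of 18 pairs. The scripts were tested on simulated data. Intervals are at the 95% level and cover counting error only. The members and gene lists were chosen with earlier results of these data known. The text names all 10 members, the other clock loop genes, up to 3 genes of each further list that passed the rule of size, and the 5 genes most like Arntl and like Dbp. Csnk1d, Csnk1e, Fbxl21 and Cdkn1a were named after their values were seen. Some genes that the rule names are not reported here. Alternatives covered scaling, filters, thinning, doublets, resolution, single mice and the replicate block.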

Additional observations from a re-analysis of the deposited data

Results flagged for a closer look

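In both STZ-HFHC mice 2 members moved against hepatocyte-like nuclei in another class. Cry2 was higher than ND in hepatocyte-like nuclei (mean log2 ratio 0.71) but lower in stellate-like nuclei (-0.243) and in monocyte-like nuclei (-0.887). In stellate-like nuclei the fold to ND was 0.761 (95% counting interval 0.581 to 0.979) for STZ-HFHC 1 and 0.938 (0.769 to 1.14) for STZ-HFHC 2. In monocyte-like nuclei the ND value rests on 4 UMIs in 40 nuclei, and both intervals, 0.208 to 2.28 and 0.211 to 2.42, span 1. Tef was higher than ND in hepatocyte-like nuclei (1.34) and lower in monocyte-like nuclei (-0.233), where ND had 9 UMIs and both intervals, 0.429 to 1.90 and 0.475 to 2.13, span 1. Each was marked because both STZ-HFHC mice lay on 1 side of ND in 1 class and on the other side in the other class. The difference between classes was not tested.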

How the results depend on the processing

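Of 90 single-gene log2 ratios in hepatocyte-like nuclei under 9 alternatives, 75 moved by less than 1 SD of the mice and 13 by more. Another 2 turned sign, both of Per1, from -0.171 to 0.097 with thinning and to 0.053 without STZ-HFHC 1 (-0.395 without STZ-HFHC 2). Leaving out 1 of 2 STZ-HFHC mice always moves their mean by less than 1 SD. Such alternatives could not count as moved by more, so the 75 were in part fixed by the design. With a log2 ratio of at least 2, 3 members (Arntl, Npas2, Dbp) passed the rule of size in hepatocyte-like nuclei, beside 3.41% of genes. In all nuclei 2 members (Npas2, Dbp) did, beside 4.25% of genes. The other alternatives gave 6 or 7 members in hepatocyte-like nuclei, beside 11.7% to 25.8% of genes. In all nuclei they gave 4 to 7, beside 15.5% to 31.2% of genes. There TMM and DESeq2 size factors each gave 4, beside 17.5% of genes, and thinning gave 4, beside 18.9%. The highest share of genes in either set of nuclei came without STZ-HFHC 2, where 6 members passed. In edgeR on all nuclei 0 members passed, 7 of 10 with an unadjusted p under 0.05. The share of all genes called in the test of condition was 3.37%, against 6.96% with DESeq2, 12.1% without a filter and 0.0748% over all nuclei. Against endothelial-like nuclei, DESeq2 and DESeq2 size factors in edgeR each gave 1 member, beside 27.5% and 27.2% of genes. The fit without the replicate block gave 0 members, and fits without 1 mouse 0 to 5, beside 11.5% to 41.4% of genes for the latter. Against stellate-like nuclei, the fit without the block gave 0 members and fits without 1 mouse 1 to 7, beside 24% to 57.1% of genes for the latter. Without the block 7.46% and 16.6% of genes passed, against 29.9% and 46.3% with it, and without a filter 18.6% and 29.6%. For these changes the cause was not tested. The fit over all nuclei and the addition of the unnamed ND cluster were chosen after seeing the data. No paired analysis was possible for ND against STZ-HFHC because these groups have 1 and 2 mice with no shared replicate. Leaving out a STZ-HFHC mouse there leaves no residual degree of freedom, and the contrast with macrophage-like nuclei was not run, since ND had 11. Depth limits Dbp most, with 14 ND UMIs in hepatocyte-like nuclei.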

Other observations

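An unnamed ND cluster of 1703 nuclei led by pericentral genes had 207 CPM of Arntl, 127 CPM of Npas2, 0.706 CPM of Dbp and 62.6 CPM of Tef, beside 215.5, 131, 0.81 and 71.5 CPM in ND hepatocyte-like nuclei. An unnamed ND cluster of 232 nuclei led by genes of Kupffer cells, the resident macrophages of liver, had 199.7 CPM of Arntl, 122 CPM of Npas2 and 63.3 CPM of Tef. A cluster with markers of both endothelial and immune cells held nuclei of all 3 libraries, and Arntl there was at 177 CPM in ND against 101 CPM for STZ-HFHC 1 and 112 CPM for STZ-HFHC 2. Npas2 in the same cluster was at 140 CPM against 24.0 and 24.1 CPM. The ND values of that cluster rest on 29 nuclei with 19 and 15 UMIs. These clusters entered no test.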
